A study of Mus musculus with 6 samples.

Results

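The report covers 10 genes of the oxidative stress response around the transcription factor NRF2 in mouse liver: Nfe2l2, which encodes NRF2 itself, its inhibitor Keap1, heme oxygenase Hmox1, and Nqo1, Gclc, Gclm, Srxn1, Txnrd1, Akr1b8 and Aox1. They were taken by gene symbol from the probe annotation, and all 10 were on the array, among 12393 genes tested, through 17 probe sets that carry 1 symbol each. Livers of TFEB-injected mice (3 arrays, 1 per mouse) were compared with livers of mice that were not injected (3 arrays, 1 per mouse). All mice were wild type, of the C57 background and 1 month old. The injected agent was an adenoviral vector meant to overexpress TFEB, a transcription factor of lysosomal and autophagy genes, in the liver, and the labels name neither its promoter nor an empty-vector group, so the vector, the injection and TFEB cannot be told apart. The comparison is of injected with not-injected mice.

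NRF2 is a basic leucine zipper factor that KEAP1 normally binds and hands to a ubiquitin ligase, so its protein is short-lived. When electrophiles or oxidants modify KEAP1, NRF2 accumulates, pairs with small MAF proteins and binds antioxidant response elements at genes for glutathione synthesis, quinone reduction, thiol repair and heme breakdown. The autophagy receptor p62, encoded by Sqstm1, also binds KEAP1 and can release NRF2. In the liver this system is known for defence against drugs and reactive metabolites. Much of NRF2's control acts on the protein, which an array does not measure.

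Values below are log2 expression as deposited, so a difference of 1 is a 2-fold change, and each difference is the mean of injected minus the mean of not-injected arrays. The 17 probe sets read 5.95 or more on every array, above the lower quartile of every array (5.55 at most). A gene was called at a limma adjusted p under 0.05 over all genes, and it was represented by its probe set with the highest mean. The Tfeb probe set read 7.48, 7.78 and 7.46 in injected livers and 7.50, 7.59 and 7.47 in not-injected livers; the labels do not say whether it detects the transgene, so it does not check the labels. Correlations between arrays over all probe sets were 0.992 to 0.997 within injected livers, 0.997 to 0.998 within not-injected livers and 0.974 to 0.988 between the groups. Injected replicate 2 was the array least like its group (mean correlation 0.992 with the other injected arrays, against 0.994 for each of those). All 18 probe sets of hybridisation spike-ins and 23 of 24 of poly-A spike-ins read lower on every injected array than on every not-injected one, with median differences of -0.32 and -0.44. The part of this shift in any difference below was not tested.

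The 10 genes did not move as a block. Enzymes rose in injected livers (Hmox1, Akr1b8, Nqo1 and Srxn1), Aox1 and Gclc fell, and Gclm, Txnrd1, Nfe2l2 and Keap1 did not pass. In all, 4 of 10 genes rose, where 14.2% of all genes did, and 2 fell, where 13.9% of all genes did. Called in either direction were 6 of 10, against 28.1% of all genes, and the groups did not overlap in 8 of 10, against 46.2% of all genes. The genes were chosen with results of these data known, so their share above the background is no result about them. The median difference was 0.06 over the 10 genes and -0.05 over all genes.

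**Figure D1:**
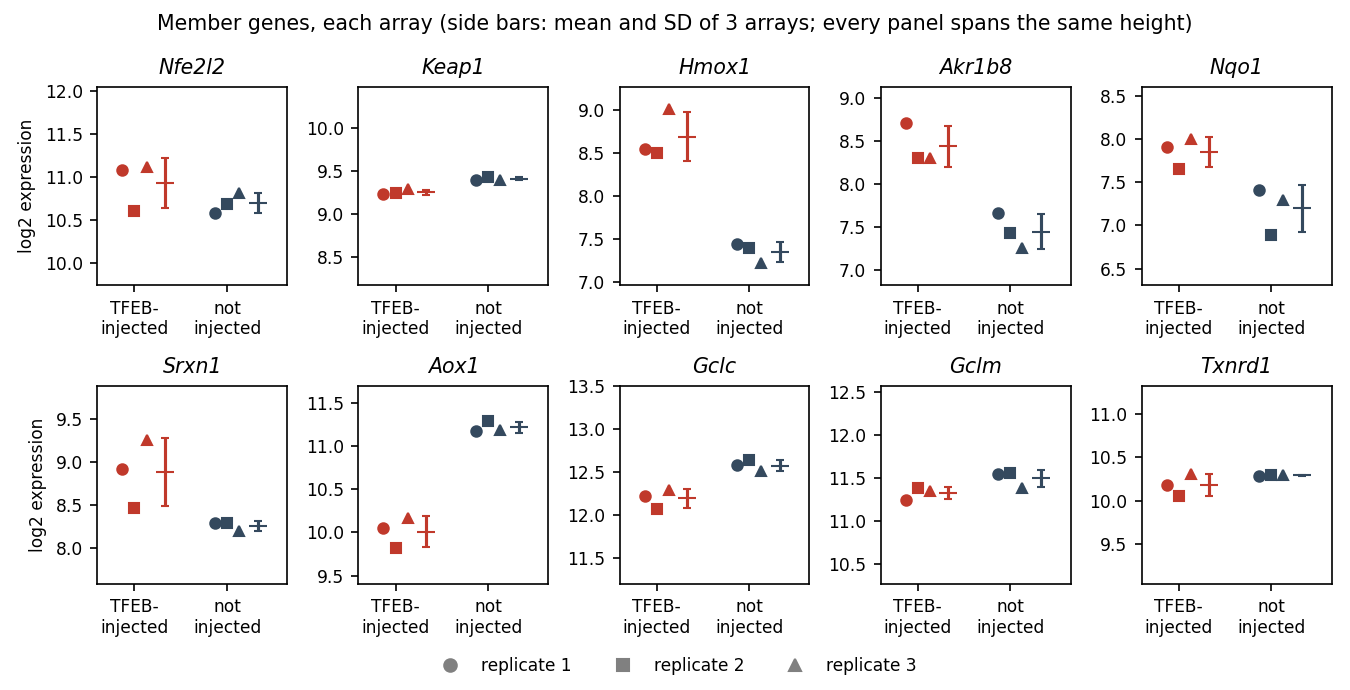
Log2 expression of the 10 genes on each array (vertical axis, panels of equal height), TFEB-injected livers on the left of each panel in red and not-injected livers on the right in dark blue, with the mean and SD of 3 arrays beside the points. Hmox1 and Aox1 stand furthest apart, in opposite directions, and Nfe2l2 is the gene in which injected replicate 2 lies among the not-injected arrays while the other injected arrays lie above them.

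The factor and its inhibitor come first. Nfe2l2 read 11.08, 10.60 and 11.12 in injected livers (10.93 ± 0.29, SD, n = 3) and 10.58, 10.69 and 10.82 in not-injected livers (10.70 ± 0.12, SD, n = 3). Injected replicates 1 and 3 lay above all not-injected livers, and injected replicate 2 lay within their range. The difference of 0.24 ± 0.14 (SE) did not pass (limma adjusted p = 0.25; 95% interval -0.10 to 0.57). Without injected replicate 2 it was 0.40 and passed (limma adjusted p = 0.0102), so this 1 array decides the call. Keap1, the substrate adaptor that holds NRF2, read 9.23, 9.24 and 9.29 in injected livers and 9.40, 9.43 and 9.40 in not-injected livers. Every injected liver lay below every not-injected one, by little: the difference was -0.16 ± 0.06 and did not pass (limma adjusted p = 0.0858). It passed after a second quantile normalization (-0.22, limma adjusted p = 0.0353), with genes under the median level left out (limma adjusted p = 0.0468) and without variance moderation (adjusted p = 0.0252). The other Keap1 probe set gave -0.08 ± 0.06 (limma adjusted p = 0.369 over all probe sets).

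Hmox1 had the largest rise of the 10 genes. It encodes the inducible heme oxygenase, which opens the heme ring to biliverdin, carbon monoxide and iron, and is known as an NRF2 target that is also held down by BACH1. It read 8.55, 8.50 and 9.02 in injected livers (8.69 ± 0.29, SD, n = 3) and 7.44, 7.40 and 7.22 in not-injected livers (7.35 ± 0.12, SD, n = 3). The groups were more than 1 log2 unit apart, and injected replicate 3 was the highest. The rise was 2.53-fold (1.34 ± 0.14, limma adjusted p = 0.000881). It kept its call under all 14 alternatives run on it, with differences of 1.17 to 1.43. In bulk liver a change in the number of cells of a type and a change in RNA per cell cannot be told apart.

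In liver Hmox1 is known to be expressed by Kupffer cells, the resident macrophages, as well as by hepatocytes, so macrophage markers are given beside it. Of 17 measured Kupffer cell and macrophage markers 5 rose and 2 fell, where 14.2% of all genes rose and 13.9% fell. At an unadjusted p under 0.05 there were 9 higher and 2 lower, a count not made over all genes. The median difference was 0.34, against -0.05 over all genes. The mean log2 level of the markers was 9.24 to 9.48 on injected arrays and 9.13 to 9.50 on not-injected arrays, which overlap. That mean includes Cd163, whose difference was the largest of the 17 and opposite in direction to their median. By limma, 9 markers were higher without not-injected replicate 1 and 3 without not-injected replicate 2. Leaving out any array but injected replicate 2 left 1 lower. The lysosomal glycoprotein Cd68 rose by 1.74 ± 0.33 and the lysozyme Lyz2 by 0.93 ± 0.13. The haemoglobin scavenger receptor Cd163 fell by 3.62 ± 0.24, with injected arrays at 4.61 to 5.33, all below the lower quartile of any array (5.45 or more), and the scavenger receptor Marco fell by 0.80 ± 0.20. The other markers that rose were Ptprc (by 0.71 ± 0.14), Cd5l (by 0.49 ± 0.10) and Tyrobp (by 0.45 ± 0.14). Clec4f and Adgre1 were well above the lower quartile in both groups and did not pass. Clec4f averaged 9.71 in injected and 9.82 in not-injected livers (difference -0.11 ± 0.13). Adgre1 averaged 8.74 in injected and 8.65 in not-injected livers (0.09 ± 0.14). All other markers that did not pass averaged higher in injected livers, with C1qb nearest the threshold (0.39 ± 0.12, limma adjusted p = 0.0505). Clec4f, Adgre1, C1qb, Ptprc, Cd5l and Tyrobp were named after their values were seen. The part of macrophages in the Hmox1 difference was not tested.

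Akr1b8 and Nqo1 are reductases of reactive carbonyls and quinones. Akr1b8, an aldo-keto reductase of mice, read 8.72, 8.30 and 8.31 in injected livers and 7.66, 7.43 and 7.26 in not-injected livers. The groups were apart by more than the range within either. The rise was 1.99-fold (0.99 ± 0.14, limma adjusted p = 0.0029) and held under all 14 alternatives (0.86 to 1.10). Nqo1, a quinone reductase often used as a marker of NRF2 activity, read 7.91, 7.66 and 8.00 in injected livers (7.86 ± 0.18, SD, n = 3) and 7.41, 6.89 and 7.30 in not-injected livers (7.20 ± 0.28, SD, n = 3). The lowest injected liver, replicate 2, was above the highest not-injected one by less than the range within either group. Nqo1 rose 1.58-fold (0.66 ± 0.15, limma adjusted p = 0.0162). It no longer passed when injected replicate 1 was left out (0.63, limma adjusted p = 0.0561) or 3 (0.59, limma adjusted p = 0.0551) and without moderation (adjusted p = 0.0933).

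Srxn1 encodes sulfiredoxin, which restores overoxidised peroxiredoxins, and of its 4 probe sets 1 passed. The brightest, an s_at set, read 8.92, 8.47 and 9.25 in injected livers (8.88 ± 0.39, SD, n = 3) and 8.28, 8.28 and 8.19 in not-injected livers (8.25 ± 0.05, SD, n = 3). All 3 injected livers were higher, and they spread far more than the not-injected ones, with replicate 2 closest to them. Srxn1 rose by 0.63 ± 0.18 (1.54-fold, limma adjusted p = 0.036) on that probe set. The other probe sets gave 0.14 ± 0.10, -0.03 ± 0.08 and 0.08 ± 0.11, and none of them passed (limma adjusted p of 0.32 to 0.833 over all probe sets). On each array the brightest probe set exceeded the mean of the others by 1.24 to 1.80 in injected and by 0.90 to 1.05 in not-injected livers, an exact permutation p of 0.1 for the difference of 0.56, the smallest that 20 assignments allow (adjusted p = 0.15 over the 3 such contrasts computed, chosen after the values were seen). The ending s_at marks a set whose probes also match other transcripts of the array's design. The call was lost with the mean of all 4 probe sets (0.20, limma adjusted p = 0.165), without moderation (adjusted p = 0.143), and without any 1 array other than injected replicate 2 (0.44 to 0.64, limma adjusted p of 0.0693 to 0.108). Without injected replicate 2 the difference was 0.83 (limma adjusted p = 0.00104).

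Aox1 fell more than any other of the 10 genes. It encodes an aldehyde oxidase, a molybdenum enzyme that oxidises aldehydes and nitrogen heterocycles of drugs and that has been described as an NRF2 target in mouse. It read 10.05, 9.82 and 10.16 in injected livers (10.01 ± 0.18, SD, n = 3) and 11.18, 11.29 and 11.19 in not-injected livers (11.22 ± 0.06, SD, n = 3). The groups were about 1 log2 unit apart at their nearest arrays. The difference was -1.21 ± 0.10 (2.31-fold lower, limma adjusted p = 0.000278) and held under all 14 alternatives (-1.28 to -1.11). Its paralog Aox3, another aldehyde oxidase of mouse liver, averaged 11.08 ± 0.11 in injected and 12.87 ± 0.09 in not-injected livers (SD, n = 3 each) and was also lower (-1.79 ± 0.08, limma adjusted p = 5.08e-05). Aox4, known mainly from skin and Harderian gland and named after its values were seen, read 4.51 and 4.53 on average in injected and not-injected livers, below the lower quartile, and did not differ beyond its error (-0.02 ± 0.07).

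Glutamate-cysteine ligase makes the first and limiting bond of glutathione, with Gclc as catalytic and Gclm as modifier subunit. Gclc read 12.22, 12.06 and 12.29 in injected livers and 12.58, 12.63 and 12.50 in not-injected livers, with no overlap. It fell by 0.38 ± 0.08 (1.30-fold, limma adjusted p = 0.0119), and the call was lost without not-injected replicate 2 (-0.35, limma adjusted p = 0.0515). Its second probe set pointed the same way at -0.19 ± 0.07 and did not pass (limma adjusted p = 0.0821 over all probe sets). Gclm read 11.25, 11.39 and 11.35 in injected livers and 11.55, 11.56 and 11.39 in not-injected livers. Injected replicate 2 and not-injected replicate 3 were level to within 0.01, and the difference of -0.17 ± 0.08 did not pass (limma adjusted p = 0.133; 95% interval -0.35 to 0.01). The subunits were set against each other array by array. Gclc exceeded Gclm, on the scale of their own probe sets, by 0.98, 0.68 and 0.94 in injected and by 1.04, 1.08 and 1.12 in not-injected livers. This difference of -0.21 reached the smallest possible exact permutation p, 0.1 (adjusted p = 0.15). No value could have passed 0.05, so the test does not decide whether the subunits differ in their change.

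Txnrd1 encodes the cytosolic thioredoxin reductase, a selenoprotein with several transcript starts, and it had 3 probe sets. The brightest read 10.18, 10.06 and 10.31 in injected livers and 10.28, 10.30 and 10.30 in not-injected livers, so the groups overlapped (-0.11 ± 0.08, limma adjusted p = 0.325). The next read 7.02, 6.99 and 6.81 in injected livers and 7.48, 7.55 and 7.23 in not-injected livers. It was lower on all injected arrays (-0.48 ± 0.10, limma adjusted p = 0.0128 over all probe sets), as was the dimmest (-0.40 ± 0.11, limma adjusted p = 0.0368). With the mean of its probe sets Txnrd1 fell by 0.33 (limma adjusted p = 0.0157). The contrast of the dim pair with the bright set was -0.33 and did not pass (exact permutation p = 0.2, smallest possible 0.1, adjusted p = 0.2). Counted by probe set, 8 of the 17 passed, against 26.0% of all probe sets, and 7 of the 10 genes had at least 1 that did.

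**Figure D2:**
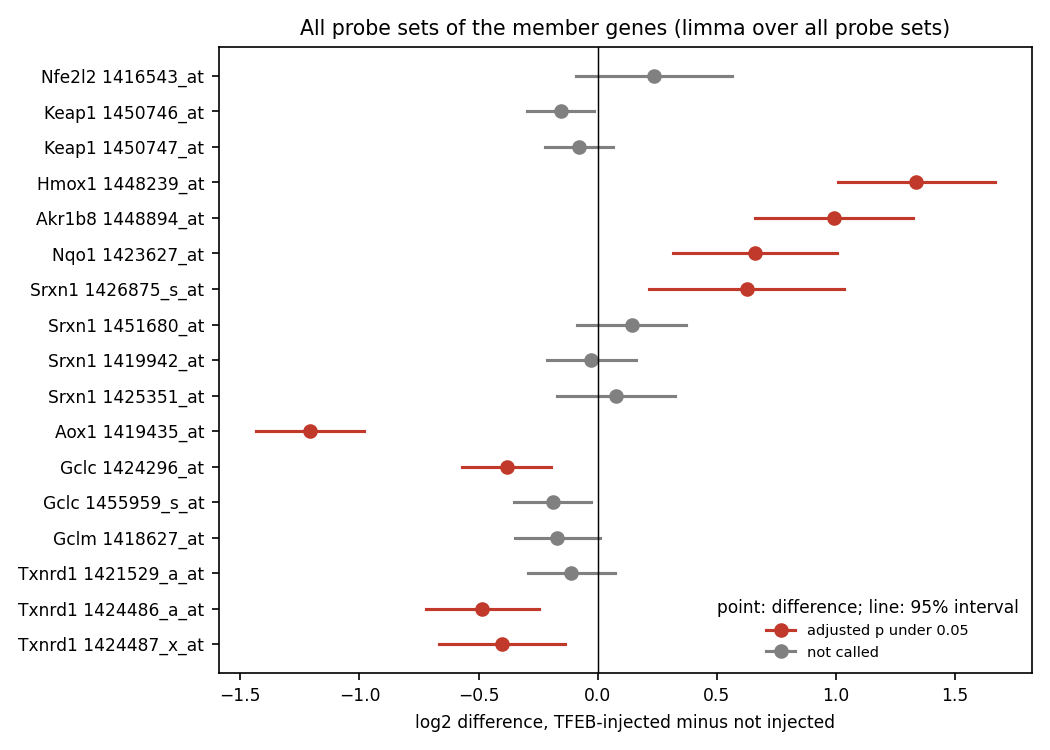
Log2 difference between TFEB-injected and not-injected livers (horizontal axis) for all 17 probe sets of the 10 genes, as points with 95% intervals, red where the limma adjusted p over all probe sets was under 0.05. Of 4 Srxn1 probe sets 1 was called, of 3 Txnrd1 probe sets the dimmer pair, and of 2 Gclc probe sets the brighter.

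The windows around the transcript starts show where the called genes carry, or do not carry, the letters of known binding motifs. RefSeq start windows (GRCm38.p6, 250 bases before to 50 after a start, on the gene's strand) were at hand for 8 of the 10 genes, in 10 windows, 3 of them for Txnrd1, and Hmox1 and Gclc are named only. Both strands were searched for TGACNNNGC, the core of the antioxidant response element, for TGACTCA, the AP-1 site, and for CACGTG, the E-box inside the site that TFEB binds. Of the 4 called genes with a window, matches are in capitals, and lower case marks all other bases. They lie at chr2:152105274-152105573 (Srxn1, plus strand), chr1:58029719-58030018 (Aox1, plus strand), chr8:107403156-107403455 (Nqo1, minus strand) and chr6:34353896-34354195 (Akr1b8, plus strand).
Srxn1: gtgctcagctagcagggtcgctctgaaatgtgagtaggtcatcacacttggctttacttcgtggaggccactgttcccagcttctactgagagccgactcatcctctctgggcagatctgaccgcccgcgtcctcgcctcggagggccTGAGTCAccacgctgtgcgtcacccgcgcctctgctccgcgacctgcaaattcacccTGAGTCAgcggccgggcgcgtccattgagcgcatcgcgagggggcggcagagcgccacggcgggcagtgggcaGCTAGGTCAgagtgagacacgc
Aox1: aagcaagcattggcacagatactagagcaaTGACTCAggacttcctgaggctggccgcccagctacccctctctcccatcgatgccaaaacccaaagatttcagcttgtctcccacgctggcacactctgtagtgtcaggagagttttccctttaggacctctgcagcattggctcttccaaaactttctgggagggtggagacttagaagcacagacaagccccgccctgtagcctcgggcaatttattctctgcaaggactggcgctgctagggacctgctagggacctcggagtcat
Nqo1: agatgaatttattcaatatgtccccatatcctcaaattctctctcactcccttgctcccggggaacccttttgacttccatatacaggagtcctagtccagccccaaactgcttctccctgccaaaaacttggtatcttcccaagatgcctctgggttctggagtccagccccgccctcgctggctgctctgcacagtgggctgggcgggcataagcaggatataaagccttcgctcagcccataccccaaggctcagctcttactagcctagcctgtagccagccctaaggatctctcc
Akr1b8: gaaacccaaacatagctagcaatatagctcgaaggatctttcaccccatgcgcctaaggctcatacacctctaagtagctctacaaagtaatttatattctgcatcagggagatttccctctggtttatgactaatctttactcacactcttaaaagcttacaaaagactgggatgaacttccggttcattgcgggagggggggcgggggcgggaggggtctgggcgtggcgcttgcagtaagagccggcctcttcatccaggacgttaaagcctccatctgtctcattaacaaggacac

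In the Srxn1 window, counted from 1 at its 5′ end, the antioxidant response element core began at base 279, after the start. AP-1 sites began at bases 149 and 206, with no overlap between the motifs as searched. With the bases after it, the site at base 206 reads TGAGTCAgc, which differs from the searched core only in a G for its C. A search that allows G there was not run. Aox1, the gene that fell most, had an AP-1 site at base 31. Nqo1 and Akr1b8, which were called, and Keap1, which did not pass, held none of the 3 motifs in their windows. This says nothing of sites further away. The core was also found in genes that did not pass on their brightest probe set. These stretches are shown with the core in capitals because they set called and uncalled genes side by side. They lie at chr2:75704885-75704913 (Nfe2l2, minus strand), chr3:122245413-122245441 (Gclm, plus strand) and chr10:82859104-82859132 (Txnrd1, plus strand).
Nfe2l2: tcagcccaccTGACTCCGCcatgccccgg
Gclm: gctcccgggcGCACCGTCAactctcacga
Txnrd1: ctggatttttGCTTTGTCAttctgacacg

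In all 4 of 10 windows held the core, 2 held an AP-1 site and 0 held the E-box. Over all 32851 windows of that length the shares were 12.4%, 5.2% and 7.15%. The core stood in 1 gene that rose and in 3 that did not pass, and in neither Aox1, which fell, nor Nqo1 and Akr1b8, which rose. It was also absent from Keap1, which did not pass, and from the other Txnrd1 windows. Txnrd1 did not pass on its brightest probe set, but its dimmer pair was called lower (-0.48 and -0.40).

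Leaving out 1 array at a time showed which calls rest on few livers. Hmox1, Akr1b8 and Aox1 were called in all 6 such fits. Injected replicate 2 was the lowest injected array in all 4 genes that rose and in 8 of the 10 genes overall. Without it 7 genes were called, and without injected replicates 1 or 3 or not-injected replicate 2 there were 4.

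**Figure D3:**
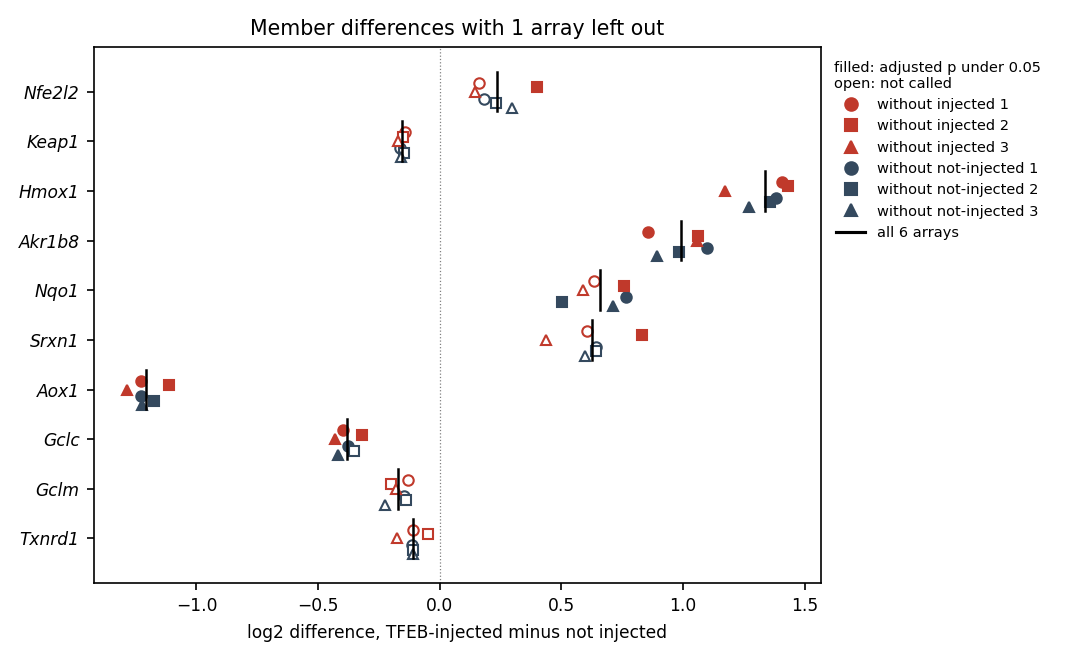
Log2 difference between TFEB-injected and not-injected livers (horizontal axis) for the 10 genes with each array left out in turn, filled where the gene was called and open where it was not, against the difference over all 6 arrays as a black line. The filled square of Nfe2l2 is the fit without injected replicate 2 (0.40), and Srxn1 is filled in that fit alone.

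Of 37 listed symbols of other known NRF2 targets 30 had a probe set with 1 symbol, and of these 6 rose, 7 fell and 17 did not pass, with a median of -0.01 beside -0.05 over all genes, of which 14.2% were called higher and 13.9% lower. Among those that rose were Gsta2, a glutathione transferase (2.04-fold, 1.03 ± 0.18), Ugdh, which makes UDP-glucuronate (0.63 ± 0.11), and Fth1, the ferritin heavy chain that stores iron (0.36 ± 0.06). Among those that fell were Blvrb, a biliverdin reductase (-0.61 ± 0.08), the NADPH-producing malic enzyme Me1 (-0.48 ± 0.09) and the glutathione transferase Gstp1 (-0.36 ± 0.07). All 6 passed limma with adjusted p of 0.00207 to 0.00897. With the mean of all its probe sets the Me1 difference was -0.29 (limma adjusted p = 0.0411). Among the genes that did not pass, glutathione synthetase, Gss, averaged 9.75 in injected and 9.39 in not-injected livers (limma adjusted p = 0.0821), glutathione reductase, Gsr, 10.13 in injected and 10.30 in not-injected livers (limma adjusted p = 0.112), and the cystine carrier Slc7a11 4.33 in injected and 4.31 in not-injected livers, below the lower quartile. The last 3 were named after their values were seen. The count of higher genes was 3 without not-injected replicate 3 and 10 without injected replicate 2, and that of lower genes was 3 without not-injected replicates 1 or 2 or injected replicate 1.

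Of 20 measured partners and regulators of NRF2 4 rose, 3 fell and 13 did not pass (median 0.01), beside 14.2% higher and 13.9% lower over all genes, so these counts lie near the background. Maff, a small MAF partner, rose 1.68-fold (0.75 ± 0.10, limma adjusted p = 0.00224), the kinase Fyn, described as a driver of NRF2 export from the nucleus, by 0.67 ± 0.13 and the related factor Nfe2l1 by 0.33 ± 0.07. The repressor Bach2 fell by 1.06 ± 0.24 (limma adjusted p = 0.016), the factor Nfe2 by 0.46 ± 0.12 and the ubiquitin ligase Syvn1, which has been reported to degrade NRF2, by 0.39 ± 0.10. Bach1, the repressor known to act on Hmox1, averaged 9.55 in injected and 9.61 in not-injected livers and did not pass (-0.06 ± 0.09). Sqstm1, both a KEAP1-binding receptor and an NRF2 target, read 11.50, 11.21 and 11.93 in injected and 11.03 to 11.04 in not-injected livers, so all injected livers were higher, but with their spread the difference of 0.51 ± 0.16 did not pass (limma adjusted p = 0.0536). Bach1 and Sqstm1 were named after their values were seen. The counts were 2 higher and 1 lower without not-injected replicate 3 or without injected replicate 1.

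Of 16 measured genes of heme handling 2 rose, 5 fell and 9 did not pass (median -0.11), beside 14.2% higher and 13.9% lower over all genes. The porphyrin exporter Abcg2 rose 1.89-fold (0.91 ± 0.13) and the constitutive heme oxygenase Hmox2 by 0.23 ± 0.07 (limma adjusted p = 0.0375). The Hmox2 call was lost in 9 of 14 alternatives, among them the replicate block (limma adjusted p = 0.0544). The heme synthesis enzyme Cpox fell by 1.17 ± 0.11, the haemoglobin-binding plasma protein haptoglobin, Hp, by 0.73 ± 0.08, and Blvrb, which reduces biliverdin and also counts among the NRF2 targets, by 0.61 ± 0.08 (limma adjusted p of 0.000624 to 0.00207). The other biliverdin reductase, Blvra, which was named after its value was seen, averaged 9.04 in injected and 9.16 in not-injected livers and did not pass (-0.12 ± 0.12). The count of higher genes was 1 when not-injected replicate 1, 2 or 3 or injected replicate 2 was left out.

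Other antioxidant enzymes included Gpx3, which rose by more than any of the 10 genes. Of 21 measured 8 rose, 4 fell and 9 did not pass (median 0.03), beside 14.2% higher and 13.9% lower over all genes. The secreted glutathione peroxidase Gpx3 rose 48.7-fold (5.61 ± 0.19 on the log2 scale), the phospholipid hydroperoxide peroxidase Gpx4 2.03-fold (1.02 ± 0.10) and the cytosolic peroxiredoxin Prdx2 1.72-fold (0.78 ± 0.07). The cytosolic superoxide dismutase Sod1 fell by 0.47 ± 0.07, the endoplasmic reticulum peroxiredoxin Prdx4 by 0.59 ± 0.12 and the methionine sulfoxide reductase Msrb1 by 0.27 ± 0.07. The count of lower genes was 2 without not-injected replicates 1 or 2 or injected replicates 1 or 3. Of 10 measured paralogs of the 10 genes 3 rose and 3 fell (median 0.03), beside the same shares over all genes. Nqo2, a quinone reductase that uses other cosubstrates than Nqo1, rose by 0.50 ± 0.06 (limma adjusted p = 0.00131), and the thioredoxin-glutathione reductase Txnrd3 fell by 0.40 ± 0.11 (limma adjusted p = 0.035). Hmox2, Nfe2l1, Aox3 and Nfe2 were the other paralogs that passed. Without injected replicate 1 there were 1 higher and 1 lower, and without not-injected replicate 3 there was 1 higher.

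**Figure D4:**
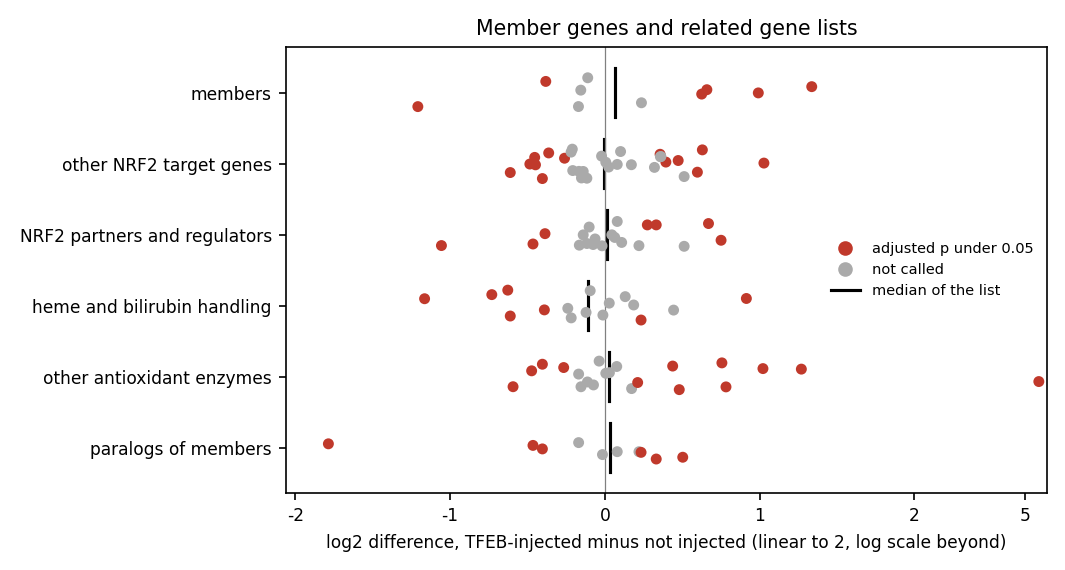
Log2 difference between TFEB-injected and not-injected livers (horizontal axis, linear up to 2 and logarithmic beyond) for the 10 genes and the measured genes of 5 related lists, red where called, with the median of each list as a black line. Called genes lie on both sides of 0 in each list, as they do over all genes (14.2% higher and 13.9% lower), and the medians lay between -0.11 and 0.06.

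Markers of the liver's cell types are given as a check of the tissue. Over all genes 14.2% were called higher and 13.9% lower, and the groups did not overlap in 46.2%. No share over all genes was counted at an unadjusted p. Of 11 hepatocyte markers 1 rose (Apob, by 0.29 ± 0.07) and 1 fell (the aminotransferase Tat, by 1.45 ± 0.10), with 1 higher and 5 lower at an unadjusted p under 0.05. The groups did not overlap in 8 of the 11, and their mean log2 level was 14.00 to 14.04 on injected arrays and 14.19 to 14.22 on not-injected arrays. Of 10 sinusoidal endothelial markers 5 rose and 0 fell by limma, with 7 higher and 0 lower at an unadjusted p under 0.05. Among those that rose were the hyaluronan receptor Lyve1 (by 2.10 ± 0.15) and the scavenger receptor Stab2 (by 0.96 ± 0.14). The groups did not overlap in 7 of the 10, and the mean level of the 10 was 8.83 to 9.04 on injected and 8.33 to 8.46 on not-injected arrays. Of 11 cholangiocyte and stellate markers 0 were called by limma, while at an unadjusted p under 0.05 there were 2 higher and 1 lower. Of 4 red cell markers 1 was called lower (the erythroid heme synthesis enzyme Alas2, -1.60 ± 0.16), with 0 higher and 2 lower at an unadjusted p under 0.05. Of these 4, 2 lay below the lower quartile in injected livers and 1 in not-injected livers, so the list is a limited check of red cells. The part of these cell types in the differences of the 10 genes was not tested. The hepatocyte counts were 0 higher without not-injected replicates 1 or 3 or injected replicates 1 or 3, and 2 and 3 lower without injected replicates 1 and 2; 3 endothelial markers were higher without not-injected replicates 2 or 3 or injected replicate 1. Without injected replicate 2, 4 cholangiocyte or stellate markers were higher and 3 red cell markers lower, and 2 red cell markers were lower without not-injected replicate 1.

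The genes whose log2 values ran most like those of Hmox1 over the 6 arrays were Creg1, which encodes a secreted lysosomal glycoprotein (Pearson r = 0.998), the mitochondrial phosphate carrier Slc25a3 (r = 0.998), the cristae protein Immt (r = 0.997), Csf2rb2, a cytokine receptor chain (r = 0.997), and the mitochondrial outer membrane protein Mtch2 (r = 0.996). The arrays share their group difference, and 560 genes had r above 0.95, so the likeness is a description of 6 arrays. Creg1 read 13.44, 13.41 and 13.70 in injected livers and 12.96, 12.90 and 12.82 in not-injected livers. As in Hmox1, injected replicate 3 was the highest and not-injected replicate 3 the lowest.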

How the data were processed

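RNA from 3 TFEB-injected and 3 not-injected livers was hybridised as biotin-labelled cRNA to Affymetrix arrays, per the labels' protocols. The values are log2 expression per probe set as deposited by the authors; per the submitters' processing notes they were made with affy and RMA, with no version, and genome build and filters are not given in the sources used here. RMA usually corrects background, equalises arrays and summarises probes by median polish, which hides a shift of all transcripts and shrinks differences of dim ones. No depth or detection call comes with the values, and precision rests on the number of arrays.

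Of 22690 probe sets 64 were controls, and 20380 had 1 gene symbol in the platform annotation (691 several, 1555 none), which gave 12393 genes, each taken as its brightest probe set. Injected and not-injected arrays were compared with limma 3.58.1 (R 4.3.3, lmFit, eBayes, prior degrees of freedom 3.47). The test was two-sided, with Benjamini-Hochberg adjustment and no covariate or filter. It was also run on simulated data with a smaller share of changed genes than was called here. That run does not check the calls in these data. Python 3.11.15 was used for counts, exact permutation tests and motif searches. Start windows came from RefSeq (GRCm38.p6). Alternatives were another normalization, centring, probe-set rule, filter, moderation, array weights, the replicate number as a block and each array left out. The 10 genes and all lists were chosen with earlier results of these data known. Named were the 10 genes, up to 3 called genes per direction of each related list and up to 2 of each marker list (smallest p), and the 5 genes most correlated with Hmox1; other genes are marked as named after their values were seen. The labels call the arrays biological replicates.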

Additional observations from a re-analysis of the deposited data

How the results depend on the processing

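For the 10 genes 139 differences were computed under alternatives: 123 kept direction and side of the threshold, 11 lost a call, 5 gained one and 0 changed direction. The number of the 10 genes called was 6, and it was 5 to 7 with another normalization, centring, the probe-set mean, the filter, the trend, no moderation, array weights or every probe set, and 4 to 7 with 1 array left out. Over all genes 3486 were called, 1881 without moderation, 4707 with array weights, and 1973 to 4378 with 1 array left out. Of the arrays left out, not-injected replicate 2 gave the lowest number, not-injected replicate 3 gave 2032 and injected replicate 1 gave 2103. Fitted by probe set, 5302 of 20380 were called, a larger number of features. Of 539 differences of the other 39 named genes 56 lost a call, 9 of these for Hmox2, and 0 changed direction.

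Arrays with the same replicate number deviated from their group means with correlations of 0.14, 0.06 and 0.01 over genes. Of 6 arrays 4 correlated best with their own number in the other group. These values do not settle whether the numbers mark pairs. The labels name no pairs, and the main fit took none. With the replicate block 6 of the 10 genes and 3348 of all genes were called, and of the named genes Hmox2 (limma adjusted p = 0.0544), Apob (0.0534) and Mtch2 (0.0741) lost their calls. Nqo1 could not be fitted under the filter, since it lies below the median level. Counts over the lists moved by more than 1.5 times in 64 of 280 cases. The deposited values carry no background measure, so folds of genes near the lower quartile, such as Cd163 in injected livers, are not exact.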
